A study of Mus musculus with 6 samples.

Results

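The genes described here are 44 genes of mitosis and the spindle, among 40481 genes of the series table. They were taken by their symbols from a list drawn up with earlier results of these data known, and all 44 were found. Liver RNA was sequenced from mice of a C57BL/6 background that all carried floxed Mttp alleles and a Villin Cre ERT2 transgene (*Mttp* f/f Villin Cre), in which Cre is driven by the promoter of villin, a gene of the intestinal epithelium, and is switched on by tamoxifen. *Mttp-IKO* mice had received tamoxifen and so lost Mttp, the microsomal triglyceride transfer protein that loads fat into chylomicrons, in the intestine, whereas control mice (labelled wild type) were littermates injected with vehicle. The mice were adult and, per the methods and legends of the study, male, and all ate a methionine/choline-deficient (MCD) diet for 3 weeks, which induces steatohepatitis, before livers were taken after 4 h of fasting. Each group consisted of 3 RNA pools, each from 3 to 4 mice, so a pool is the replicate, and p-values measure the spread between pools and not between mice. A vehicle injection does not control for tamoxifen itself, and no pool of mice on a normal diet was analysed here.

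Cell division requires cyclin-dependent kinase 1 with its cyclins to enter mitosis, condensins and topoisomerase to compact and untangle the chromosomes, kinetochores and motor proteins to attach and move them on the spindle, and the anaphase-promoting complex to end the attachment checkpoint and release the sister chromatids. Most of these genes are transcribed in bursts late in the cell cycle, under the MuvB complexes, B-Myb and FoxM1, and are close to silent in resting cells. In the adult liver most hepatocytes are quiescent, and mitotic mRNAs come from the few cells of any type that are cycling, including regenerating hepatocytes, expanding macrophages and stellate cells. In whole-liver RNA, fewer cells of a type and less RNA per cell cannot be told apart.

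The pools held 25271585 to 36238734 reads on genes, so that 3 reads, the limit that a count of 0 allows, correspond to 0.0828 to 0.119 CPM (reads of a gene per 1000000 reads of the library). Levels below are CPM with the library size scaled by TMM. Hepatocyte markers summed to between 51964 and 158129 CPM in the 6 pools, as the liver label requires, and the level of Mttp itself in liver (90.4 to 186 CPM in control and 129 to 161 CPM in *Mttp-IKO* pools) does not test the labels, since the deletion is in the intestine. In control pool 2, markers of striated muscle summed to 847 CPM, against 5.16 to 119 CPM in the other pools, and *Mttp-IKO* pool 3 had 0.642% of its reads on small RNAs, against 3.61% to 5.28% elsewhere. Counts of calls and the ratio of summed levels for the mitosis and spindle genes are also given without each of these pools. Sums by role, sums of cell-type markers and the overlap of pools for single named genes are given with all pools only.

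All 44 mitosis and spindle genes had a lower mean level in *Mttp-IKO* than in control liver. Their summed level was 169, 81.1 and 126 CPM in the control pools and 63.2, 42.1 and 43.5 CPM in the *Mttp-IKO* pools, so the groups did not overlap and the control mean (125.5 ± 43.9 CPM, SD, n = 3) was 2.53 times the *Mttp-IKO* mean (49.6 ± 11.8 CPM). The ratio of the control to the *Mttp-IKO* mean ranged from 1.50 for Ect2 to 7.84 for Nuf2, with a median of 2.77, and it exceeded 2 for 33 genes and 4 for 11 genes. For 28 of the 44 (63.6%), every *Mttp-IKO* pool lay below every control pool, which held for 12.1% of the 27802 genes with any read and for 16.5% of the 17287 genes tested. Leaving out a pool can only keep or raise this count at a given scaling. It was 42 without control pool 2 (against 22.9% of genes tested) and 33 without *Mttp-IKO* pool 3 (against 22.9%). In both cases all 44 means were still lower, and the ratio of the sums was 2.98 and 2.39. For a single gene, the smallest two-sided p of an exact permutation test on this design is 0.1, and it is the value of these 28 genes.

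The control pools differed among themselves almost as a block. Control pool 1 had the highest control level for 41 of the 44 genes and control pool 2 the lowest for 42, and the order of pools 1, 3 and 2 held for 39. Among the *Mttp-IKO* pools the order was less uniform, with pool 1 highest for 30 genes, pool 3 for 11 and pool 2 for 3. No reads were found for Ccnb1 in *Mttp-IKO* pool 3 and for Ttk in *Mttp-IKO* pool 2, the only zeros in the group.

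**Figure D1:**
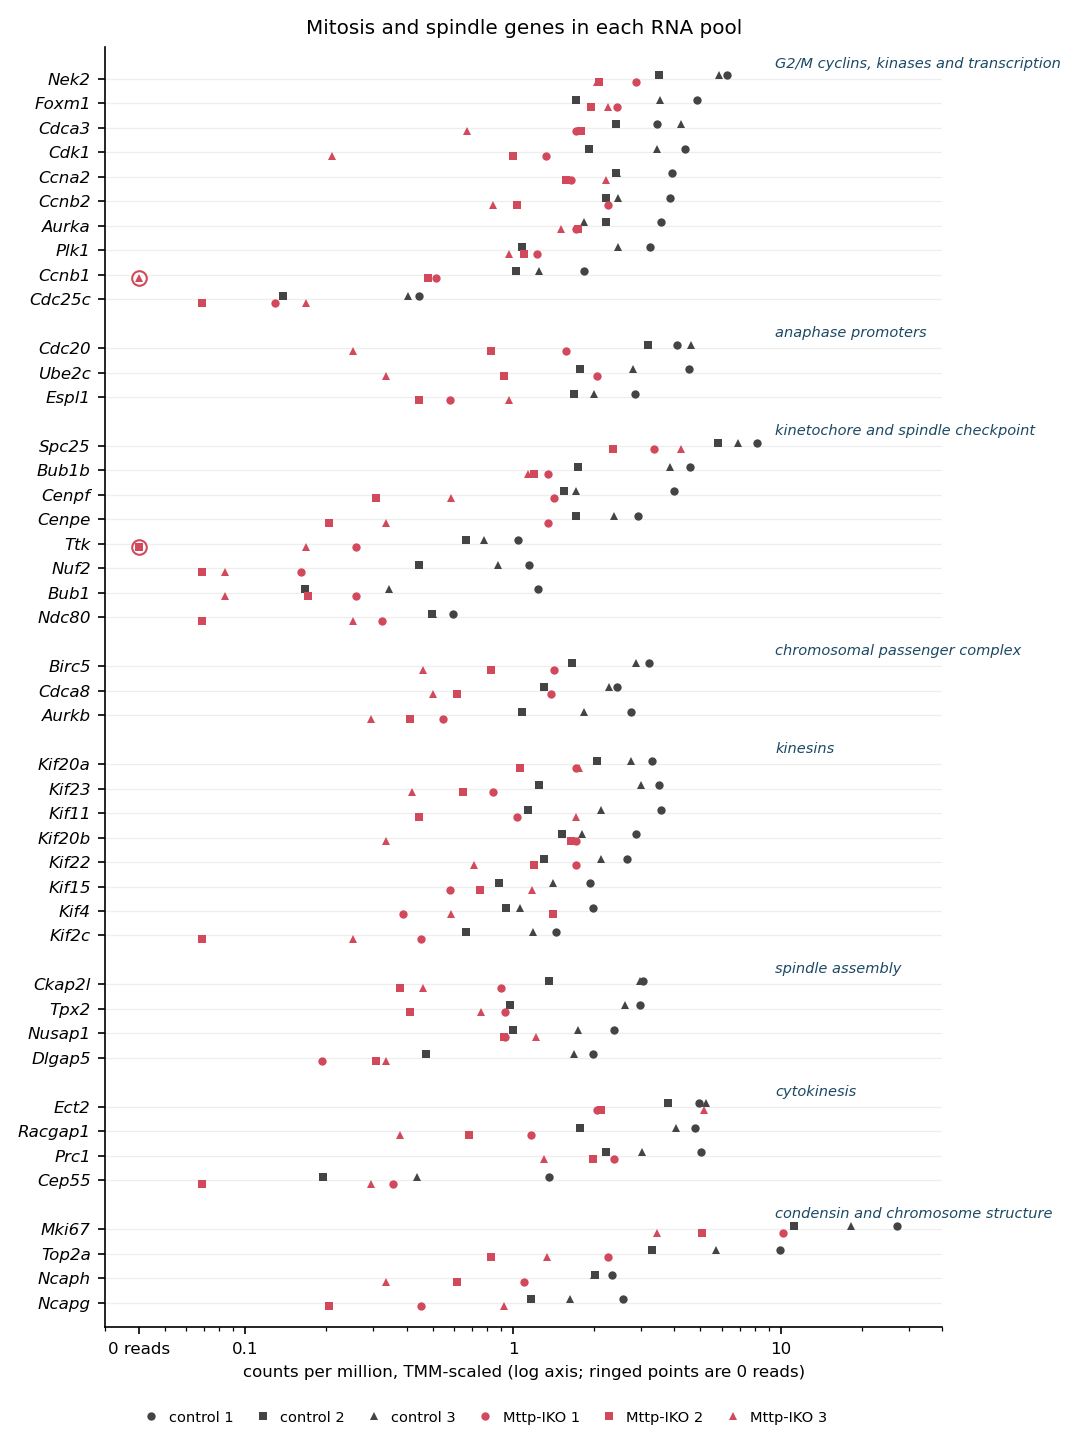
Level of each of the 44 mitosis and spindle genes in each pool, in TMM-scaled CPM on a log axis, with control pools in grey, *Mttp-IKO* pools in red and genes grouped by role and ordered by their control mean. The grey points lie to the right of the red ones for 28 genes, and the 2 ringed points are the values with 0 reads.

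Per gene, the genotypes were compared by edgeR's quasi-likelihood test over the 17287 genes that passed its filter on low counts, with p-values adjusted by the Benjamini-Hochberg method over all of them. Of the 44 genes 42 passed the filter, while Cdc25c and Bub1 did not. Nuf2 and Ttk exceeded the filter level in control pools only, so their presence among the tested genes itself favours a difference. In all, 13 of the 42 had fewer than 3 *Mttp-IKO* pools over that level. Aurkb and 5 of the 7 tested kinetochore and checkpoint genes were among them. These 13 passed only with the help of control pools, which also favours a difference. All 42 had a fitted fold change below 0, which held for 49.5% of the genes tested, and 31 had a log2 fold change under -1, against 9.15% of all genes. Past an adjusted p of 0.05, 2 of the 42 (4.76%) were lower in *Mttp-IKO* liver, Nuf2 and Aurkb, and 0 were higher, against 3.09% of all genes tested that were called lower and 0.92% called higher. The share of calls was thus near that over all genes. At an unadjusted p under 0.05, 30 of the 42 were lower (71.4%, against 13.5% of all genes), and at an adjusted p under 0.1, 14 were lower (33.3%, against 6.7%). DESeq2 on the same counts called 23 of the 42 lower, against 7.74% of all genes, and limma-voom called 0, with 29 at an unadjusted p under 0.05. A fit without the filter, which takes in all 44, gave a median log2 fold change of -1.50 (over all 27802 genes, -0.06), all 44 below 0 (53.5% of all genes), with 11 genes called lower (25%, against 2.86% of all genes) and 33 at an unadjusted p under 0.05 (75%, against 10.4%). Without any 1 of control pools 1 and 3 and *Mttp-IKO* pools 1 and 2, edgeR called 0 of these genes, with 21 to 31 at an unadjusted p under 0.05. Over all genes (17652 to 17943 tested), the same fits gave 0 to 55 calls in either direction, and 2476 to 4457 genes at an unadjusted p under 0.05. Without control pool 2 edgeR called 10 of the 44 (892 of all 17784 genes), and without *Mttp-IKO* pool 3 it called 4 of the 44 (864 of all 17854 genes).

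**Figure D2:**
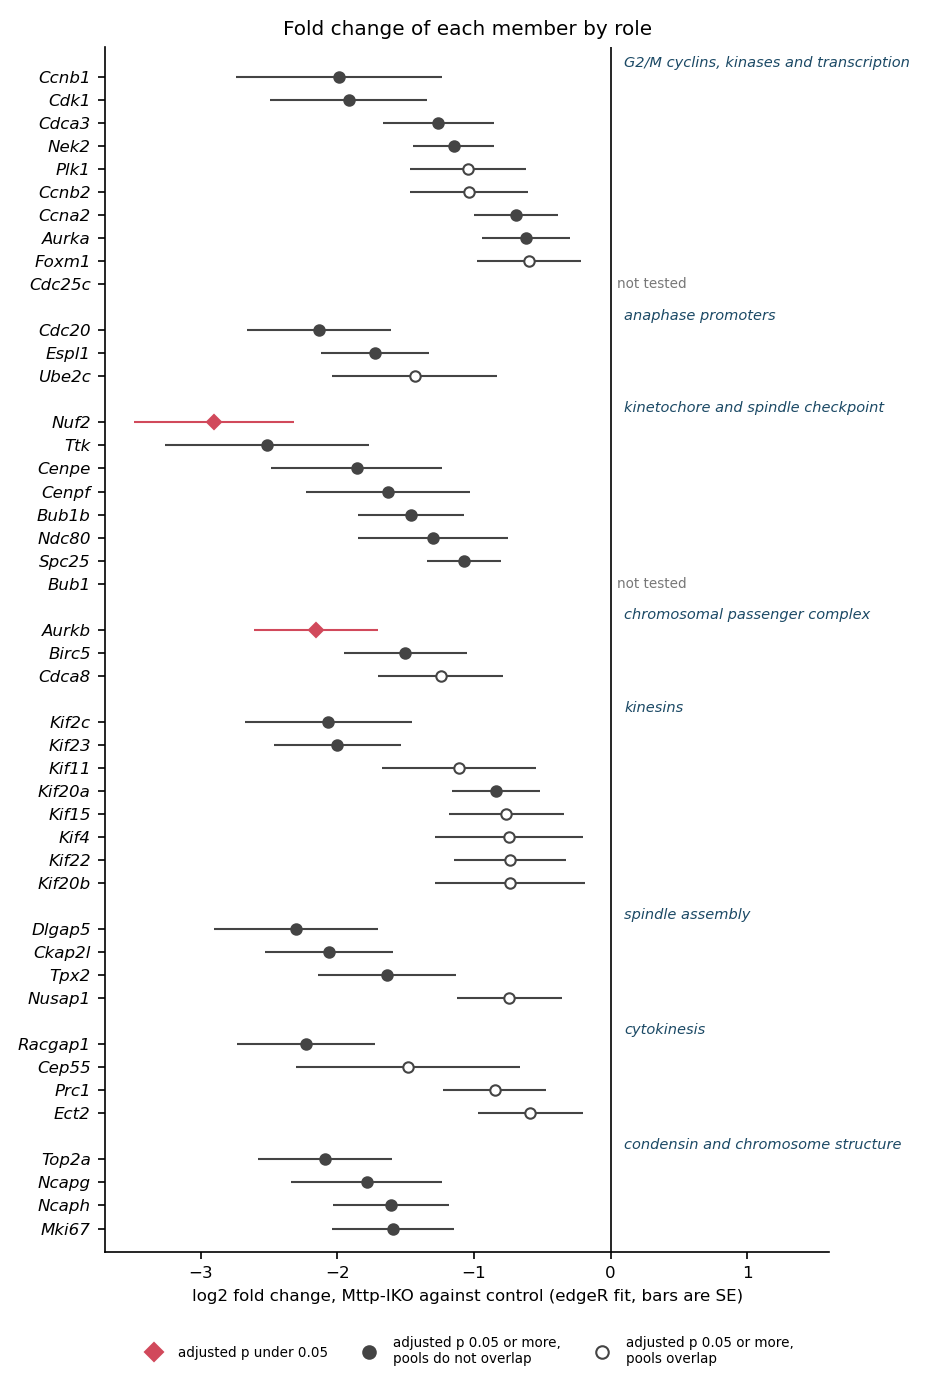
Fitted log2 fold change of each gene (*Mttp-IKO* against control, edgeR, bars are SE), grouped by role, with red diamonds for an adjusted p under 0.05 and open circles where the pools of the genotypes overlap. All 42 tested genes lie left of 0, from -2.90 for Nuf2 to -0.59 for Ect2, and 6 of the 8 kinesins lie between -1.11 and -0.74.

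A sequence feature shared by many of these genes, which had no part in their choice, lies at their transcription starts. The cell cycle genes homology region (CHR, searched as TTTGAA and, in a variant form, as TTCGAA) is known as the site through which MuvB complexes bind late cell cycle promoters, often beside a CCAAT box (CCAAT), the site of NF-Y, whereas E2F sites (searched as TTGGCGC, and in the forms TTCCCGC as well as TTCGCGC and also as TTGCCGC) are more typical of genes of DNA synthesis. In windows of 250 bases before to 50 bases after the start (RefSeq, GRCm38.p6), searched on both strands with each motif counted on its own, 37 of the 44 genes had an entry. A CHR was present in 30 of the 37 (81.1%), against 19.4% of 27025 promoters of all genes, a CCAAT box in 28 (75.7%, against 37.9%) and both in 25 (67.6%, against 7.7%). E2F letters were present in 7 (18.9%, against 9.69%). Such a match is a description of the letters and not a binding site.

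The position of the CHR was narrow. Of its 42 matches 32 lay between 100 bases before and 50 bases after the start, and 29 of the 37 promoters (78.4%) had at least 1 there, against 8.68% of all promoters. In the 50 bases that follow the start there were 51.4 matches per 100 promoters of these genes and 2.46 per 100 promoters of all genes. The CCAAT boxes sat further upstream, with a median position of 58 bases before the start.

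**Figure D3:**
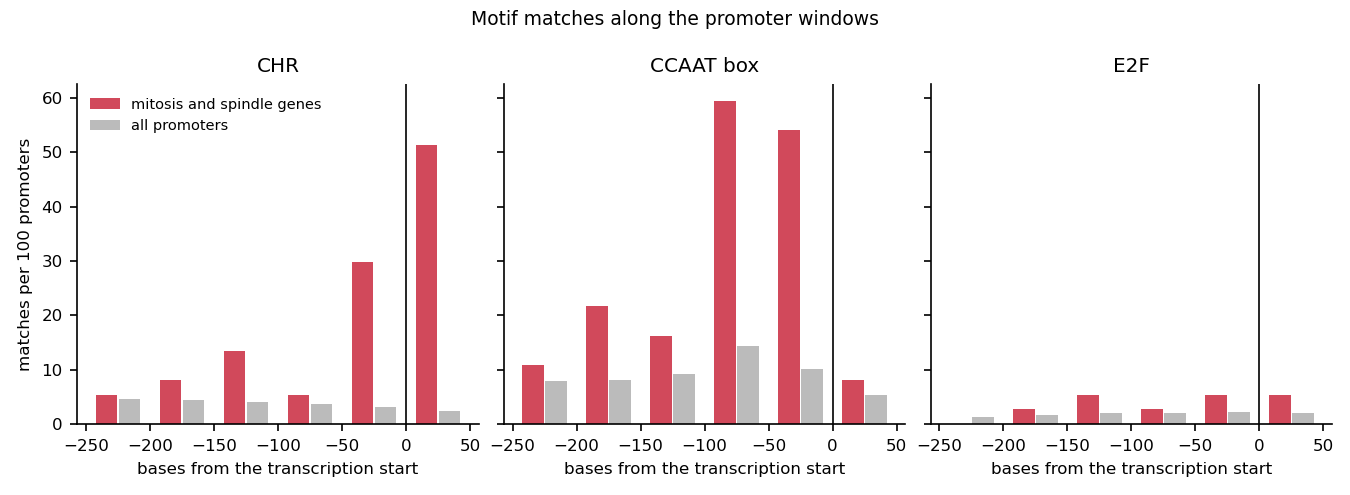
Matches per 100 promoters in bins of 50 bases from 250 bases before to 50 bases after the transcription start, for the 37 promoters of mitosis and spindle genes (red) and all 27025 promoters (grey). CHR matches of the former are densest in the bins on either side of the start, at 29.7 and 51.4 per 100 promoters, and CCAAT boxes in the 100 bases before it.

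The 150 bases before the start are shown for Nuf2, the gene with the lowest adjusted p, and for 5 genes of other roles with at least 1 CHR wholly within this stretch, read 5′ to 3′ along the gene with the letters of CHR, CCAAT and E2F matches on either strand in capitals (GRCm38.p6). Nuf2 has none of them in the whole window. The Cdk1 stretch holds 2 CHR, 2 CCAAT and 1 E2F matches, that of Cdc20 1 CHR and 2 CCAAT, that of Kif22 1 CHR and 1 CCAAT, that of Ckap2l 1 CHR and 3 CCAAT, and that of Mki67 2 CHR, 1 CCAAT and 1 E2F.
Nuf2 (chr1:169531465-169531614, minus strand): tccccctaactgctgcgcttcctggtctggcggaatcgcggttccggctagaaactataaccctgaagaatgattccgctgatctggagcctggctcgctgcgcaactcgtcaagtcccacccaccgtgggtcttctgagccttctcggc
Cdk1 (chr10:69352913-69353062, minus strand): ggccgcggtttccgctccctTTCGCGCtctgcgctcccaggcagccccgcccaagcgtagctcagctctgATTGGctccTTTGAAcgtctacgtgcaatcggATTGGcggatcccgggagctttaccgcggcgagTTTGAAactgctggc
Cdc20 (chr4:118437344-118437493, minus strand): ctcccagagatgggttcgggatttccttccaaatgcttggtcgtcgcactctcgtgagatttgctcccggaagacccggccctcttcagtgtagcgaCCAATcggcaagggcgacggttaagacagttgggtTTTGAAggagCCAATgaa
Kif22 (chr7:127042421-127042570, minus strand): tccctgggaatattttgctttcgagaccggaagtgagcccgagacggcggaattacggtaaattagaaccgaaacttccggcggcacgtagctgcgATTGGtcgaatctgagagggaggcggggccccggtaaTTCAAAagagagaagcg
Ckap2l (chr2:129297213-129297362, minus strand): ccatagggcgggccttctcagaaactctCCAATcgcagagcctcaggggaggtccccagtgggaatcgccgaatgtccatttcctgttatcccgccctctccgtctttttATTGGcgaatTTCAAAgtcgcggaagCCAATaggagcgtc
Mki67 (chr7:135716380-135716529, minus strand): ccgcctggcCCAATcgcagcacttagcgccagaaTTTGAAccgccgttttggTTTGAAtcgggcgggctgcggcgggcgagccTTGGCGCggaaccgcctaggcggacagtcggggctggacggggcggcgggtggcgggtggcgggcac

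Among the regulators of mitotic entry, cyclin B2 (Ccnb2, chromosome 9, 70407689 to 70421554) had the highest level per length, 1.84 ± 0.568 RPKM (CPM per 1000 bases of exon) in control pools. Ccnb2 was at 3.84, 2.22 and 2.47 CPM in control livers and at 2.26, 1.03 and 0.839 CPM in *Mttp-IKO* pools. *Mttp-IKO* pool 1 was above control pool 2, so the groups overlapped (log2 fold change -1.04, SE 0.429, adjusted p = 0.200, edgeR). Its partner kinase Cdk1, the engine of mitotic entry, was at 4.39, 1.91 and 3.44 CPM in control and at 1.32, 0.995 and 0.210 CPM in *Mttp-IKO* pools, without overlap (log2 fold change -1.92, SE 0.577, adjusted p = 0.104, edgeR). For cyclin B1 (Ccnb1) the reads were 74, 37 and 40 in control and 16, 14 and 0 in *Mttp-IKO* pools, and over the pooled reads the control level was 3.90 times the *Mttp-IKO* level (exact 95% interval for counting error 2.62 to 5.98). Smaller differences were fitted for cyclin A2 (Ccna2, -0.69), which also serves S phase, the centrosomal kinase Aurka (-0.62) and the transcription factor Foxm1 (-0.60), which drives many of the other genes of the group. Nek2, a kinase of centrosome separation, had the lowest adjusted p of the role (2.34 ± 0.460 CPM in *Mttp-IKO* against 5.20 ± 1.50 CPM in control, adjusted p = 0.0726, edgeR). Polo-like kinase 1 (Plk1, -1.04) and the mitotic entry factor Cdca3 (-1.26) lay between. Cdc25c, the phosphatase that activates Cdk1, had only 36 reads in control and 10 in *Mttp-IKO* pools, a ratio of 2.79 (1.36 to 6.30).

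The genes that trigger anaphase differed more. Cdc20, the activator of the anaphase-promoting complex (chromosome 4, 118432901 to 118437352), was at 4.09, 3.19 and 4.62 CPM in control livers and 1.58, 0.823 and 0.252 CPM in *Mttp-IKO* pools. All *Mttp-IKO* pools were thus below the lowest control pool, with *Mttp-IKO* pool 3 the furthest (log2 fold change -2.13, SE 0.530, adjusted p = 0.0658, edgeR), and without that pool the fold change was -1.71 with an adjusted p of 0.0473. Espl1, which encodes separase, the protease that cuts cohesin, had a mean of 2.18 ± 0.601 CPM in control and 0.664 ± 0.269 CPM in *Mttp-IKO* pools (adjusted p = 0.0532, edgeR), again without overlap. For Ube2c, the ubiquitin-conjugating enzyme of the complex, *Mttp-IKO* pool 1 (2.06 CPM) exceeded control pool 2 (1.77 CPM) and the fitted difference was -1.43.

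Kinetochore and checkpoint genes held the gene with the largest difference. Nuf2 (chromosome 1, 169497934 to 169531464), a subunit of the NDC80 complex that grips microtubules, had 46, 16 and 28 reads in control pools and 5, 2 and 2 reads in *Mttp-IKO* pools, that is 1.14, 0.444 and 0.875 CPM against 0.161, 0.0686 and 0.0839 CPM. Its fitted level was lower in *Mttp-IKO* liver (log2 fold change -2.90, SE 0.583, adjusted p = 0.0390, edgeR). Over the pooled reads the control level was 7.75 times the *Mttp-IKO* level (exact 95% interval 3.91 to 17.5). Nuf2 exceeded the filter level in control pools only, so its presence among the tested genes itself favours a difference. With any 1 of the 6 pools removed, its adjusted p lay between 0.0279 and 0.164 and its fold change between -3.37 and -2.60, and the adjusted p stayed under 0.05 only without control pool 2. Other subunits of the same complex differed less. Spc25 (chromosome 2, 69193895 to 69206194), the most abundant gene of the group per length at 2.19 ± 0.366 RPKM in control, was at 8.16, 5.82 and 6.93 CPM in control and 3.35, 2.37 and 4.24 CPM in *Mttp-IKO* livers (log2 fold change -1.07, SE 0.269, adjusted p = 0.0673, edgeR). Ndc80 itself was low, with 58 reads in all in control and 18 in *Mttp-IKO* pools (ratio 2.5, 1.45 to 4.5). Their groups did not overlap, and neither did those of the checkpoint kinase genes Bub1b (-1.46) and Ttk (-2.51), the kinetochore motor Cenpe (-1.86) and Cenpf (-1.63). Bub1, a further checkpoint kinase, was below the filter, with 50, 6 and 11 reads in control and 8, 5 and 2 in *Mttp-IKO* pools, so that its higher control mean came mostly from control pool 1.

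The chromosomal passenger complex corrects wrong attachments and later guides cytokinesis. Its kinase Aurkb (chromosome 11, 69045647 to 69051664) was at 2.75, 1.08 and 1.84 CPM in control livers and 0.548, 0.412 and 0.294 CPM in *Mttp-IKO* pools. Every *Mttp-IKO* pool lay below the lowest control pool, and the fitted level was lower (log2 fold change -2.16, SE 0.456, adjusted p = 0.0443, edgeR). Not every *Mttp-IKO* pool was over the filter level for Aurkb. It passed the filter only with the help of control pools, which favours a difference. Leaving out each pool gave fold changes of -2.45 to -1.80 and adjusted p of 0.0264 to 0.176, again under 0.05 only without control pool 2. Survivin (Birc5, chromosome 11, 117849251 to 117855743), the most abundant member of the complex per length at 0.760 ± 0.241 RPKM, was at 3.22, 1.66 and 2.87 CPM in control and 1.42, 0.823 and 0.461 CPM in *Mttp-IKO* pools, without overlap (-1.50, SE 0.452, adjusted p = 0.104, edgeR). Borealin (Cdca8) had overlapping pools and a fitted difference of -1.24.

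The 8 kinesins, microtubule motor proteins most of which move along the filament, differed in the size of their differences. Kif23 (chromosome 9, 61917280 to 61946799), the motor of centralspindlin at the cleavage furrow, was at 3.50, 1.25 and 3.00 CPM in control and 0.838, 0.652 and 0.419 CPM in *Mttp-IKO* pools, without overlap (log2 fold change -2.0, SE 0.467, adjusted p = 0.0568, edgeR). Kif2c, which dismantles microtubules at kinetochores, had a fitted difference of -2.07 (adjusted p = 0.10, edgeR). The other 6 lay between -1.11 for Kif11, the motor that pushes the spindle poles apart, and -0.74, and of these only Kif20a, a motor of cytokinesis, had pools that did not overlap. Kif22 (chromosome 7, 127027732 to 127042420), the chromosome arm motor and the most abundant kinesin per length at 0.982 ± 0.330 RPKM, was at 2.65, 1.30 and 2.12 CPM in control and at 1.71, 1.20 and 0.713 CPM in *Mttp-IKO* pools, and *Mttp-IKO* pool 1 was above control pool 2 (-0.74, SE 0.413, adjusted p = 0.326, edgeR). Kif15 (-0.76), Kif20b (-0.74) and Kif4 (-0.74) had overlapping pools too, and for Kif4 *Mttp-IKO* pool 2, at 1.41 CPM, exceeded control pools 2 and 3.

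Among genes of spindle assembly, Ckap2l (chromosome 2, 129268210 to 129297212), a microtubule-binding protein of the spindle, was the most abundant per length at 0.784 ± 0.304 RPKM. Its levels were 3.05, 1.36 and 2.97 CPM in control livers and 0.903, 0.377 and 0.461 CPM in *Mttp-IKO* pools, without overlap (log2 fold change -2.06, SE 0.471, adjusted p = 0.0532, edgeR). Dlgap5, which bundles kinetochore fibres, had a fitted difference of -2.30 and Tpx2, the activator of Aurora A, of -1.64, both without overlap. Nusap1, a further microtubule bundler, was at 1.03 ± 0.165 CPM in *Mttp-IKO* against 1.71 ± 0.692 CPM in control pools, and its pools overlapped.

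Cytokinesis genes were split. Racgap1, the partner of Kif23 in centralspindlin, was at 4.76, 1.77 and 4.06 CPM in control and 1.16, 0.686 and 0.378 CPM in *Mttp-IKO* livers (log2 fold change -2.23, SE 0.506, adjusted p = 0.0527, edgeR), so both centralspindlin genes had control means over 4 times those of *Mttp-IKO* pools. Ect2 (chromosome 3, 27097222 to 27153878), the exchange factor that centralspindlin recruits to activate RhoA, had the highest level of the role per length (0.896 ± 0.147 RPKM) and the smallest difference of the 42. Its levels were 4.93, 3.80 and 5.25 CPM in control livers and 2.06, 2.13 and 5.16 CPM in *Mttp-IKO* pools. The third *Mttp-IKO* pool stood with the controls, and without it Ect2 had a log2 fold change of -1.15 and an adjusted p of 0.0483 (edgeR), against -0.59 and 0.396 with it. Prc1, which bundles the central spindle, had a fitted difference of -0.85, and Cep55, a protein of abscission, of -1.48 that rested on control pool 1 (1.36 CPM, against 0.0686 to 0.437 CPM in the other 5 pools).

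Genes of chromosome structure were uniform. Mki67 (chromosome 7, 135689788 to 135716379), the Ki-67 protein that coats mitotic chromosomes and is used as a marker of cycling cells, had the highest CPM of the group, with 27.1, 11.1 and 18.2 CPM in control and 10.1, 5.08 and 3.44 CPM in *Mttp-IKO* pools, and per length, at 1.87 ± 0.794 RPKM in control pools, it came after Spc25 and Cdc20. All *Mttp-IKO* pools were below the lowest control pool, pool 1 by the least (log2 fold change -1.59, SE 0.444, adjusted p = 0.0877, edgeR). Top2a, the topoisomerase that untangles sister chromatids, had a control mean 4.28 times its *Mttp-IKO* mean (-2.09, adjusted p = 0.0580, edgeR). The condensin I subunits Ncapg (-1.79) and Ncaph (-1.61) were close to each other. None of these 4 genes had overlapping pools.

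Set side by side, the roles differed in size but not in direction. The ratio of summed CPM, control to *Mttp-IKO*, was 3.46 for the anaphase genes, 3.26 for chromosome structure, 3.01 for the passenger complex, 2.99 for spindle assembly, 2.72 for kinetochore and checkpoint, 2.08 for the regulators of mitotic entry, 2.05 for the kinesins and 2.05 for cytokinesis. Of the mean chromosome structure sum, Mki67 alone made up 18.8 of 29.0 CPM in control and 6.21 of 8.90 CPM in *Mttp-IKO* pools. In each role the sums of the *Mttp-IKO* pools lay below those of all control pools. For the kinesins they were 21.2, 9.76 and 15.5 CPM in control and 8.41, 7.24 and 6.96 CPM in *Mttp-IKO* pools, and for kinetochore and checkpoint genes 23.7, 12.6 and 17.4 CPM against 8.48, 4.39 and 6.88 CPM. By the median over members of the ratio of means, the order of the roles was another. Spindle assembly stood at 3.68, the anaphase genes at 3.29, kinetochore genes at 3.27 and chromosome structure at 3.25. Below them were the passenger complex at 2.87, cytokinesis at 2.30, mitotic entry at 2.15 and kinesins at 1.74. With Cenpe, which is a kinesin by descent, counted among the kinesins, the median fitted log2 fold change of the latter was -0.84, in place of -0.80. The differences between roles were not tested.

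Genes of the same pathway outside the 44 were read from lists of 79 other mitotic genes with cell cycle-regulated expression, 44 mitotic genes that cells also use outside mitosis and 42 genes of DNA replication. Of the first, 73 were tested and 62 had a fold change below 0 (49.5% of all genes tested), with 9 called lower (12.3%, against 3.09% of all genes) and 0 higher (against 0.92%). The median log2 fold change was -0.95, against 0.01 over all genes. The lowest adjusted p values belonged to the centromere gene Cenpi, the kinastrin gene Knstrn, the phosphatase Cdc25b, Arhgap11a, which restrains RhoA, and the minus-end kinesin Kifc1. Cenpi had 45, 30 and 23 reads in control and 2 in each *Mttp-IKO* pool (log2 fold change -3.57, adjusted p = 0.0181, edgeR; ratio of pooled reads 12.7, exact 95% interval 5.61 to 35.3). Like Nuf2 and Ttk, Cenpi exceeded the filter level of 0.311 CPM in control pools only, so its presence among the tested genes itself favours a difference. Knstrn was at 3.20, 2.66 and 2.90 CPM in control and 0.709, 0.652 and 0.294 CPM in *Mttp-IKO* pools (-2.38, adjusted p = 0.0205, edgeR), with a tighter control group than most of the 44. Cdc25b (-1.47), Arhgap11a (-1.50) and Kifc1 (-2.29) passed too. In the other direction Mastl, the Greatwall kinase, was at 5.36 to 6.03 CPM in control and 5.61 to 11.5 CPM in *Mttp-IKO* pools (adjusted p = 0.245, edgeR), and the importin Kpna2 at 30.4 to 31.7 and 35.4 to 38.8 CPM (adjusted p = 0.310, edgeR).

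Mitotic genes with work in resting cells did not share this pattern. All 44 were tested, 19 had a fold change below 0 and 25 above, 0 were called by edgeR in either direction (4 at an unadjusted p under 0.05, 2 each way), and their median was 0.05 against 0.01 over all genes. With counts scaled by library totals alone the median was -0.13, against -0.17 over all genes, and 1 was called lower. They are also expressed at another level, with a median of 5.28 RPKM in control pools, against 0.495 RPKM for the 44 mitosis and spindle genes. Anapc2, a core subunit of the anaphase-promoting complex that Cdc20 activates, was at 47.3 to 51.8 CPM in control and 35.6 to 37.8 CPM in *Mttp-IKO* pools (-0.42, adjusted p = 0.108, edgeR), and Wee1, the kinase that restrains Cdk1, at 16.6 to 18.2 and 8.92 to 13.8 CPM (-0.57, adjusted p = 0.139, edgeR). The cohesin subunit Stag1 (0.34), the Ran exchange factor Rcc1 (0.44) and the cohesin release factor Wapl (0.34) had higher means in *Mttp-IKO* pools and did not pass.

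Of the 42 DNA replication genes, all tested, 40 had a fold change below 0 (49.5% of all genes tested), 8 were called lower (19.0%, against 3.09% of all genes) and 0 higher (against 0.92%), with a median of -0.58. Mcm5, a subunit of the replicative helicase, was at 12.3, 10.8 and 11.2 CPM in control and 3.90, 3.26 and 2.94 CPM in *Mttp-IKO* pools (-1.76, SE 0.193, adjusted p = 0.0126, edgeR), with control pools much closer together than for the mitosis genes. Mcm3 (-1.22), the licensing factor Cdt1 (-1.04), the methylation reader Uhrf1 (-2.09) and the transcription factor E2f1 (-1.77) fell as well. Chaf1b (0.19, adjusted p = 0.759, edgeR) and Rrm2 (0.07, adjusted p = 0.937, edgeR) had fold changes above 0. In their promoters a CHR was present in 18.2% of 33 genes and E2F letters in 57.6%, whereas the other cell cycle-regulated mitotic genes had 59.1% and 27.3% of 66 and the mitotic genes used outside mitosis 24.3% and 27.0% of 37. The calls in these lists rested on single pools as well. Without *Mttp-IKO* pool 2, edgeR called 0 genes of the whole table (3221 at an unadjusted p under 0.05). Among other mitotic genes 0 were called without control pool 1, control pool 3 or *Mttp-IKO* pool 1, 4 without *Mttp-IKO* pool 3 and 11 without control pool 2. Among replication genes 0 were called without control pool 1 or 3 and 2 without *Mttp-IKO* pool 1, against 8 without control pool 2 and 7 without *Mttp-IKO* pool 3.

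**Figure D4:**
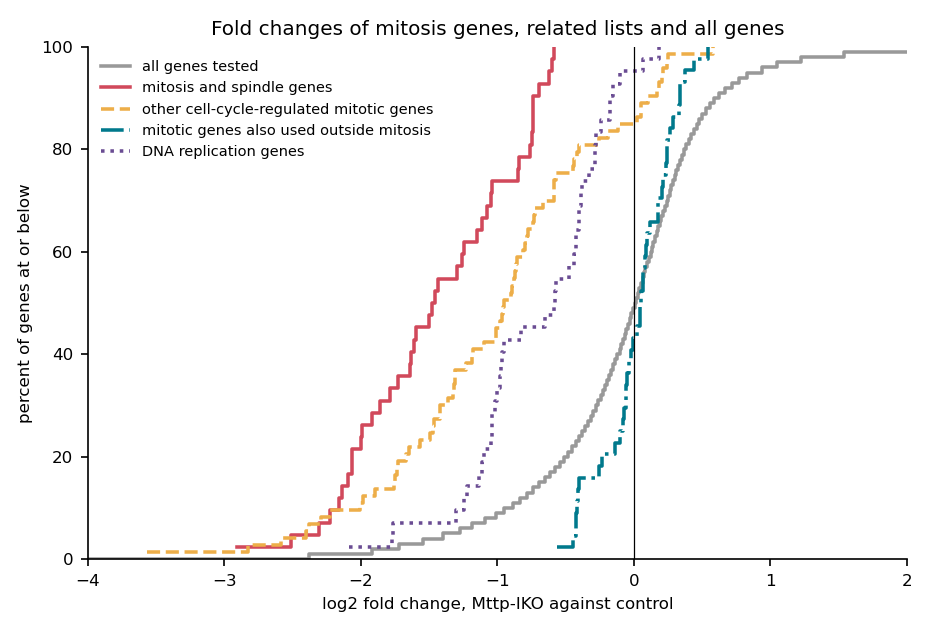
Cumulative percent of genes at or below each fitted log2 fold change (*Mttp-IKO* against control) for the 42 tested mitosis and spindle genes, 3 related lists and all 17287 genes tested. The medians are -1.47 for the mitosis and spindle genes, -0.95 for other cell cycle-regulated mitotic genes, -0.58 for DNA replication genes and 0.05 for mitotic genes also used outside mitosis, whose curve lies beside that of all genes.

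Marker lists of liver cell types moved with these genes to different degrees, and their part in the result was not tested. Of 8 markers of recruited macrophages 8 had lower fitted levels in *Mttp-IKO* pools (49.5% of all genes tested) and 4 were called lower (50%, against 3.09% of all genes). Their sum was 862, 282 and 859 CPM in control and 126, 192 and 167 CPM in *Mttp-IKO* pools. Control pool 2 was the lowest control pool here, as for the mitosis genes. The same held for the sums of stellate cells, Kupffer cells, cholangiocytes, T and natural killer cells, plasma cells, neutrophils, erythroid cells and small intestine. For hepatocyte, endothelial, B cell and striated muscle markers it was the highest control pool. For stellate cells and fibroblasts 8 of 8 were lower and 5 called (62.5%, against 3.09% of all genes), with sums of 1516, 851 and 1265 CPM against 457, 495 and 510 CPM. These calls come from the fit of all 6 pools, and without *Mttp-IKO* pool 2 edgeR called 0 genes of the whole table. Markers of T and natural killer cells summed to 5.21 to 11.7 and 2.81 to 5.29 CPM, and those of B cells to 3.15 to 3.27 and 1.13 to 1.68 CPM, of which the B cell sums did not overlap between genotypes. Kupffer cell markers (298 to 436 CPM in control and 227 to 563 CPM in *Mttp-IKO* pools), endothelial markers (365 to 415 CPM in both), erythroid markers (334 to 476 and 242 to 398 CPM) and neutrophil markers (3.33 to 11.3 and 3.60 to 11.0 CPM) overlapped, as did cholangiocyte (69.8 to 195 and 49.0 to 94.4 CPM), plasma cell (350 to 380 and 274 to 415 CPM) and small intestine markers (1279 to 2438 and 807 to 2919 CPM). Of the 6 Kupffer cell markers, 3 were fitted below 0, with log2 fold changes of -0.74 to 1.31 over the list. In the fit of all 6 pools 1 of them was called higher, against 0.92% of all genes. The plasma cell list included Xbp1 and Sdc1 and the small intestine list Apoa4 and Fabp2, and which cells these sums come from was not tested. Spp1 was in the lists of both recruited macrophages and cholangiocytes, and Des in those of both stellate cells and striated muscle. Hepatocyte markers were higher in *Mttp-IKO* pools (51964 to 85176 and 102061 to 158129 CPM), with 5 of 6 fitted above 0 and 0 called. No marker was at 0 in all pools.

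**Figure D5:**
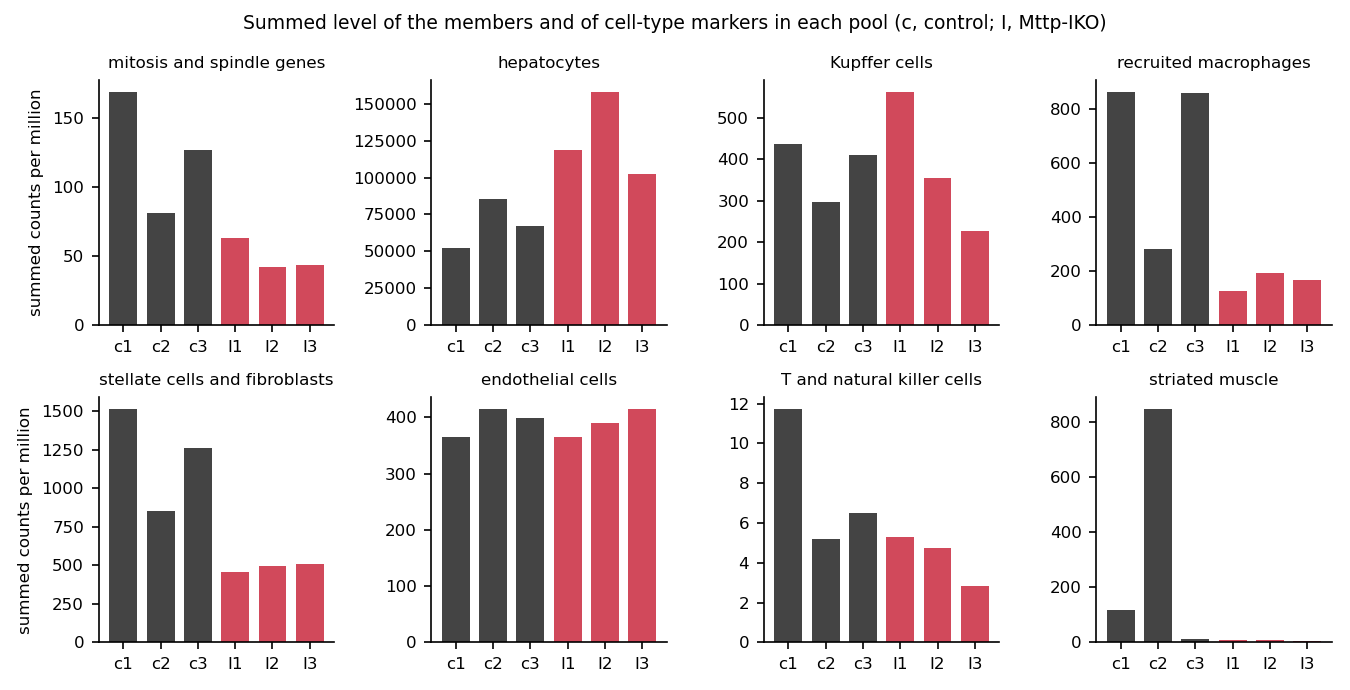
Summed CPM of the 44 mitosis and spindle genes and of the markers of 7 cell types in each pool, with bars from 0, control pools (c1 to c3) in grey and *Mttp-IKO* pools (I1 to I3) in red. Control pool 2 is the lowest control pool for the mitosis genes (81.1 CPM), recruited macrophages (282 CPM) and stellate cells (851 CPM). It is also the lowest for Kupffer cells (298 CPM) and T and natural killer cells (5.21 CPM). It is the highest control pool for hepatocytes and endothelial cells, and it holds the striated muscle signal (847 CPM).

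Most of these counts belong to one gene without doubt, but not all. The libraries' strand setting at counting is not stated, and 11 of the 44 genes share exon bases with another gene in the authors' annotation, 5 of them over 10% (Kif20a with Cdc23, Ube2c with Tnnc2, Kif4 with Pdzd11, Ccna2 with Exosc9 and Ncapg with Lcorl). Reads that fall there were not counted as unambiguous if strand was ignored. In 32 of the 44 genes some stretch of 50 nt also occurs in transcripts of another gene (GENCODE M21), and in 9 genes over 10% of all stretches do. Those of Ccnb1 (23.4%) were mostly in its pseudogenes. Levels of these 9 genes are thus lower bounds on their own length scale. For Aurkb, Nuf2 and Mki67 no exon base was shared. The study singled out Aurkb and Kif23 from these same libraries, also reports quantitative PCR for both, and lists primers for them and for Cdc20. The sequencing values of these genes here are not independent of that choice.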

How the data were processed

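Total liver RNA was pooled by genotype, depleted of ribosomal RNA with KAPA RiboErase and sequenced by the authors. Reads were aligned with STAR 2.5.1a to Ensembl release 76 (GRCm38). The deposited counts are uniquely aligned, unambiguous reads per gene from featureCounts 1.4.6-p5, in 1 file of 41388 genes per pool and 1 series table of 40481 genes (276 repeated lines were dropped), and the 2 sources differed in 0 values. The strand setting is not given in the sources used here. The deposited files also hold CPM and RPKM values that the authors derived from the counts, of which 0 did not follow from them, and neither was used in a test.

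Genes were tested on the deposited counts with edgeR 4.0.16 (R 4.3.3, quasi-likelihood, genotype as the only term, all 6 pools), after filterByExpr (minimum count 10, total 15) and TMM scaling (factors 0.898 to 1.11), with Benjamini-Hochberg adjustment over 17287 genes and a threshold of 0.05. CPM and RPKM in the text were recomputed with the TMM-scaled library sizes. The pipeline was tested on simulated counts. No 2 pools of a genotype agreed within sampling noise. Each pool held 25271585 to 36238734 reads on genes, and exact intervals and floors cover counting error only. Alternatives were scaling by total counts, by upper quartile or by the factors of DESeq2, the DESeq2 test itself (1.42.0), limma-voom (limma 3.58.1), robust dispersion, no filter or a filter of CPM above 0.5 in 3 pools, protein-coding genes only, a replicate block, removal of a length trend, a threshold of 0.1 and leaving out each pool. The members and lists were chosen with earlier results of these data known. Named with all pool values were genes past the threshold, the most abundant gene per length of each role and those with primers in the study, plus up to 5 genes with the lowest p and 2 of opposite direction per related list. Cdk1, Racgap1, Ccnb1 and Bub1 were given by pool after their values were seen. Promoter windows are from RefSeq (GRCm38.p6) and shared stretches from GENCODE M21. Figures were drawn with matplotlib 3.10.9 (Python 3.11.15).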

Additional observations from a re-analysis of the deposited data

How the results depend on the processing

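The direction of the mitosis and spindle genes did not change under any setting run. All tested members had a fold change below 0 in every fit, and their median lay between -1.79 and -1.21 when single pools were left out. How many passed the threshold did change, and the cause was not tested. Against 2 called lower by edgeR, 5 were called with upper quartile scaling, 9 with total counts, 11 without a filter, 1 with the CPM filter, 14 at an adjusted p under 0.1, 23 by DESeq2 and 0 by limma-voom (29 at an unadjusted p under 0.05). Leaving out single pools gave 0 to 10 calls. Without control pool 2 the 10 included Nuf2 and Aurkb, whereas the 4 without *Mttp-IKO* pool 3 (Cdc20, Ect2, Espl1 and Spc25) included neither. The count of genes without overlap ranged from 28 to 42 without single pools, an alternative chosen after seeing the data. Leaving out a pool can only keep or raise this count at a given scaling, so its lower end does not measure dependence on a pool. Over all genes tested the share without overlap was 18.8% to 23.5% without single pools, against 16.5% with all pools. Over pairs of a single member and a setting, 641 kept the result of the main fit, called or not. In 58 the gene passed only under the alternative, in 12 a call was lost and in 0 the direction changed. Since the main fit called only 2 of these genes, most of the 641 pairs were called in neither fit. The medians of 2 roles moved beyond the spread between pools, kinetochore and checkpoint (-2.29 to -1.22) and cytokinesis (-1.52 to -0.53). Over all genes 694 of 17287 were called in either direction, against 741 with upper quartile scaling, 1019 with total counts, 990 of 27802 without a filter and 703 of 15939 with the CPM filter. There were 1995 by DESeq2, 428 by limma-voom, 1658 at an adjusted p under 0.1 and 0 to 892 without single pools (24 without control pool 1, 21 without control pool 3, 55 without *Mttp-IKO* pool 1, 0 without *Mttp-IKO* pool 2). For other cell cycle-regulated mitotic genes the count of 9 became 20 by DESeq2, 3 by limma-voom, 18 at an adjusted p under 0.1 and 0 to 11 without single pools, with medians of -1.19 to -0.85. The 8 DNA replication genes became 15 by DESeq2 and 0 to 8 without single pools. Scaling by total counts shifted the median of all genes to -0.17, that of the replication genes to -0.76 and that of mitotic genes used outside mitosis to -0.13, with 1 of the last called lower, and removal of the length trend shifted the median of all genes to 0.10.

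With the replicate number as a replicate block, 592 genes were called, and 6 mitosis and spindle genes (Aurkb, Ckap2l, Mki67, Nuf2, Racgap1 and Top2a), with a median of -1.47. Deviations from the group means correlated by 0.133, 0.104 and 0.00666 between pools of the same number, and 5 of 6 pools correlated best with their own number. The labels do not say what the number stands for. The main fit assumed no pairing, and whether pools of the same number are paired was not tested. Depth limits the genes with few reads. For all 10 genes whose ratio of pooled reads was computed (Nuf2, Ttk, Ccnb1, Bub1, Cdc25c, Cep55, Ndc80, Dlgap5, Kif2c and Cenpi), the upper bound of the counting interval is more than 2 times the lower.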
